A study of Mus musculus with 12 samples.

Results

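The 10 genes described here encode the coat and the early maternal protein stock of the growing mouse oocyte: Zp1, Zp2, Zp3, Gdf9, Bmp15, Nlrp5, Ooep, Padi6, Oosp1 and Khdc3. They were chosen by name, as zona pellucida proteins, oocyte growth factors and proteins of the subcortical maternal complex, by a rule that uses no measured level but was written with earlier results of these data known, and all 10 were found among the 55401 genes of the count table. The table holds 12 libraries of total RNA from oocytes cut by laser capture microdissection from ovary sections of C57Bl/6j x CBA/J mice. The 4 groups of 3 libraries are oocytes of primordial follicles and oocytes of primary follicles, each from sham ovaries and from ovaries given dorsomorphin (DM), a small molecule used to inhibit the energy-sensing kinase AMPK. Ovaries of mice aged 7 to 8 days were cultured for 5 days with DM or with its solvent DMSO, fixed, embedded in paraffin and stained, and oocytes were taken by their appearance. The sample labels call the control sham and give in vivo as the description, and the DM concentration behind these libraries is not given in the sources used here. RNA was pooled over caps of the same oocyte stage and amplified before library preparation, so each library is a pool. For library preparation the study's methods name a capture kit and, for collected oocytes, also Smart-seq II. The kit named for the microdissected oocytes selects RNA with probes, and how far these cover the 10 mouse genes was not tested, so a low count or a 0 is not read as absence of the transcript. The study's text calls the samples of a group biologically independent, while the labels do not say which animals they came from.

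The zona pellucida is the glycoprotein coat that an oocyte secretes around itself once its follicle leaves dormancy, and it later serves sperm binding and the block to polyspermy. Gdf9 and Bmp15 encode secreted factors of the TGF-beta superfamily through which the oocyte acts on its granulosa cells. Nlrp5, Ooep, Padi6 and Khdc3 encode proteins of the subcortical maternal complex and the cytoplasmic lattices, which build up in growing oocytes and are needed by the early embryo. Oosp1 encodes an oocyte secreted protein. Expression of the zona genes is known to depend on the germ cell factor FIGLA, which binds an E-box with its partner, and this is why upstream sequences of 3 of the genes are shown first.

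RefSeq promoter entries on GRCm38.p6 were at hand for 7 of the 10 genes, and Zp1, Zp2 and Gdf9 had none. The sequences below run 5′ to 3′ on the gene's own strand and end where the annotated gene begins. They are those of Zp3 at chr5:135979855-135980098 on the plus strand, of the first start of Nlrp5 at chr7:23385639-23385888 on the plus strand and of Padi6 at chr4:140742644-140742893 on the minus strand, one gene for the coat and a pair for the maternal complex. Capitals mark each match to the E-box pattern CANNTG, which reads the same on both strands.

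Zp3: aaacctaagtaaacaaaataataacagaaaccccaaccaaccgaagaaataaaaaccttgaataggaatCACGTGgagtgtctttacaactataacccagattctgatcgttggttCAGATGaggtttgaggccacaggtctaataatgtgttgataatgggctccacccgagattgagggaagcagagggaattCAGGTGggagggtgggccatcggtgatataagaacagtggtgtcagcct

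Nlrp5: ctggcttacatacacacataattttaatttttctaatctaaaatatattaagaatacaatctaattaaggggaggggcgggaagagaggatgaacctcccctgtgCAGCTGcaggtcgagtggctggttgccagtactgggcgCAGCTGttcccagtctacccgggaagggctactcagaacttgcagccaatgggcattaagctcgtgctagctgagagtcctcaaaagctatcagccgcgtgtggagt

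Padi6: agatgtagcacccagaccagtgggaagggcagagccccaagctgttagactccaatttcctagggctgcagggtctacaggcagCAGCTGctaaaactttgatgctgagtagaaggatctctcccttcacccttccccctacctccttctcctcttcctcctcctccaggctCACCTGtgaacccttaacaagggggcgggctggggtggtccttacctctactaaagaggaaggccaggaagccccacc

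In Zp3 the E-box matches began 181, 134 and 55 bases upstream of the RefSeq start. In Nlrp5 they began 145 and 107 bases upstream, and in Padi6 166 and 78 bases upstream. The 250 bases before the start held at least 1 match in 8 of 8 windows of the 7 genes, where Nlrp5 has a second start. The pattern is short and common: 66.2% of 32851 windows of the same length held it, and 12.2% held 3 or more. The matches are a description of the letters and not a measurement of binding.

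Library totals ran from 14034586 to 42639326 counts, and 3 counts, taken as the floor below which a value is not read, correspond to 0.0704 to 0.214 CPM, which is the usual scaling of a count by its library total. Libraries differed in how many genes of the whole table had more than 3 counts, with 4206 to 10687 (median 7408.5) in the 6 sham libraries and 4670 to 7616 (median 5265) in the 6 DM libraries. Of 12 oocyte markers, Ddx4 and Kit were over 3 counts in all 12 libraries, whereas Dazl was over 3 counts in 6 and Figla in 3. Markers of neighbouring cells were present too: the summed level of 12 granulosa markers was 1495 to 8879 CPM in sham and 256 to 14298 CPM in DM libraries, and that of 9 stroma and theca markers was 2547 to 6492 CPM and 2389 to 13188 CPM. The 5 blood and endothelium markers summed to at most 24.9 CPM. In such pooled material, fewer oocytes and less RNA per oocyte cannot be told apart.

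The 10 genes were low, and their counts were scattered over libraries. At the level fixed for holding a gene, 10 CPM or more, 6 of the 120 combinations of gene and library qualified, and these were Zp1 in 3 libraries and Gdf9 in 3. At 1 CPM, 40 of 120 qualified, 30 of 60 in sham and 10 of 60 in DM libraries, with 20 of 60 at each follicle stage. Genes of the whole table at 1 CPM or more numbered 1727 to 7909 (median 4894.5) in sham and 1798 to 4867 (median 3072.5) in DM libraries. Above 3 counts, 71 of the 120 combinations qualified, of which 43 were in sham and 28 in DM libraries. Per library, 6 to 8 of the 10 genes were above 3 counts in sham and 1 to 7 in DM. The summed level of the 10 genes was 12.1 to 218 CPM in sham and 0.760 to 83.0 CPM in DM, and without Zp1 and Gdf9 it was 5.65 to 16.1 CPM and 0.713 to 14.6 CPM, so that the treatments overlapped on both measures. The summed level of the 12 oocyte markers had a median of 67.6 CPM in DM libraries (range 16.8 to 1116) and of 488 CPM in sham libraries (range 5.17 to 1746). The part of oocyte content and of library complexity in the values that follow was not tested.

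**Figure D1:**
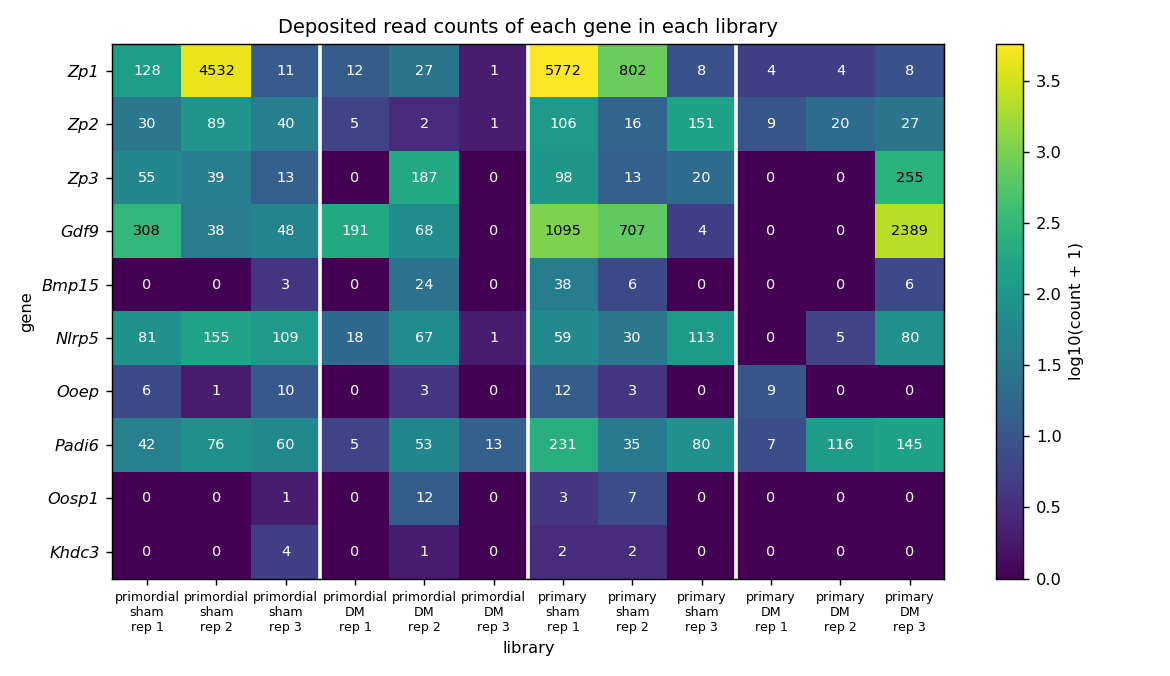
Deposited read counts of the 10 genes (vertical axis) in the 12 libraries (horizontal axis, replicates 1 to 3 of each group), with the count printed in each cell and the colour showing log10(count + 1). Zp1 reached 5772 counts and Gdf9 2389, while Oosp1 and Khdc3 stayed at or below 12 and 4 counts.

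Levels of different genes depend on length, so they are given per length of annotated exon. Coverage by the capture probes was not tested, so the order below may also reflect it. By the median over 12 libraries, in CPM per kilobase, Gdf9 stood first with 1.26, followed by Padi6 with 0.897, Zp3 with 0.675, Nlrp5 with 0.419, Zp2 with 0.287, Zp1 with 0.263 and Ooep with 0.0264, and the medians of Bmp15, Oosp1 and Khdc3 were 0. By the highest library the order was another, with Zp1 at 85.5 and Gdf9 at 33.5 CPM per kilobase. The ranges over libraries overlapped for every pair of neighbours in the order of medians.

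Among the coat genes, Zp1 (ENSMUSG00000024734.8, chr19:10914287-10920632, minus strand, GENCODE on GRCm38), which encodes the glycoprotein that cross-links the filaments of the coat, was the most uneven. In primordial sham oocytes it had 128, 4532 and 11 counts in replicates 1, 2 and 3, and in primordial DM oocytes 12, 27 and 1. In primary sham oocytes it had 5772, 802 and 8 counts, and in primary DM oocytes 4, 4 and 8. No DM library went above 27 counts, and 2 of the 6 sham libraries, with 8 and 11 counts, lay within the DM range, so the treatments overlapped. As levels, the 6 sham libraries lay between 0.257 and 169 CPM and the 6 DM libraries between 0.0475 and 0.774 CPM.

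Zp2 (ENSMUSG00000030911.7, chr7:120126772-120145291, minus strand), whose protein is the sperm-binding component of the coat, separated by treatment in CPM of the library total. Primordial sham libraries had 30, 89 and 40 counts and primordial DM libraries 5, 2 and 1, where the counts of 2 and 1 are at the floor. Primary sham libraries had 106, 16 and 151 counts and primary DM libraries 9, 20 and 27. In CPM of the library total, all 6 DM libraries (0.0475 to 0.770) were below all 6 sham libraries (0.793 to 4.85), with a gap of 0.770 against 0.793 CPM between the nearest. Such a separation held for 0.716% of the genes tested. On the TMM scale used in the fits, the treatments overlapped for Zp2 in primary oocytes and over both stages.

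Zp3 (ENSMUSG00000004948.12, chr5:135980099-135988624, plus strand), the third zona glycoprotein, whose upstream region is shown above, was present in every sham library and in few DM libraries. It had 55, 39 and 13 counts in primordial sham and 98, 13 and 20 in primary sham oocytes. With DM it had 0, 187 and 0 counts in primordial and 0, 0 and 255 in primary oocytes. The 2 DM libraries with reads of Zp3 had more counts than any sham library, and the other 4 were at 0, which allows up to the floor of 3 counts, for counting error only.

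Of the growth factors, Gdf9 (ENSMUSG00000018238.6, chr11:53431023-53437904, plus strand) had 308, 38 and 48 counts in primordial sham and 191, 68 and 0 in primordial DM oocytes. In primary oocytes it had 1095, 707 and 4 counts in sham and 0, 0 and 2389 in DM libraries. Its highest library was thus a DM library and 3 of the 6 DM libraries were at 0. In primary oocytes the level was either 32.1 CPM or more, in 3 libraries, or 0.129 CPM or less, in the other 3, while in primordial oocytes no library exceeded 8.14 CPM. Bmp15 (ENSMUSG00000023279.7, chrX:6314107-6320721, minus strand), which acts together with Gdf9, was over 3 counts in 4 libraries only: 24 counts in primordial DM replicate 2, 38 and 6 in primary sham replicates 1 and 2, and 6 in primary DM replicate 3. These are libraries in which Gdf9 had 68 counts or more. Bmp15 was at 0, however, in primordial sham replicate 1 and primordial DM replicate 1, where Gdf9 had 308 and 191 counts.

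Within the maternal complex, Nlrp5 (ENSMUSG00000015721.18, chr7:23385889-23441922, plus strand), also called MATER, had 81, 155 and 109 counts in primordial sham and 18, 67 and 1 in primordial DM oocytes. In primary oocytes it had 59, 30 and 113 counts in sham and 0, 5 and 80 in DM libraries. In primordial oocytes the DM libraries (0.0475 to 1.92 CPM) were all below the sham libraries (2.14 to 7.21 CPM), as for 11% of the genes tested, but on the TMM scale used in the fits they overlapped (0.0705 to 2.45 against 1.19 to 7.01 CPM). In CPM of the library total, the highest primary DM library, at 2.28 CPM, lay inside the sham range of 1.73 to 3.63 CPM. Padi6 (ENSMUSG00000040935.12, chr4:140727355-140742643, minus strand), a member of the peptidylarginine deiminase family needed for the cytoplasmic lattices, was the only one of the 10 besides Zp1 and Zp2 with a count in every library. It had 42, 76 and 60 counts in primordial sham, 5, 53 and 13 in primordial DM, 231, 35 and 80 in primary sham and 7, 116 and 145 in primary DM oocytes. Its groups overlapped by treatment and by stage.

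The other 3 genes were at the edge of detection. Ooep (ENSMUSG00000032346.7, chr9:78376109-78378725, minus strand), a core protein of the complex, was over 3 counts in 4 libraries, with at most 12. Oosp1 (ENSMUSG00000041857.10, chr19:11667460-11691150, minus strand) was over 3 counts in 2 libraries, with 12 counts in primordial DM replicate 2 and 7 in primary sham replicate 2. Khdc3 (ENSMUSG00000092622.8, chr9:73101836-73104438, plus strand), also called FILIA, had at most 4 counts, and its exons overlap those of Gm20509 on the same strand, so that reads may have been split or left out. For these genes a difference between groups was not detectable at this depth.

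**Figure D2:**
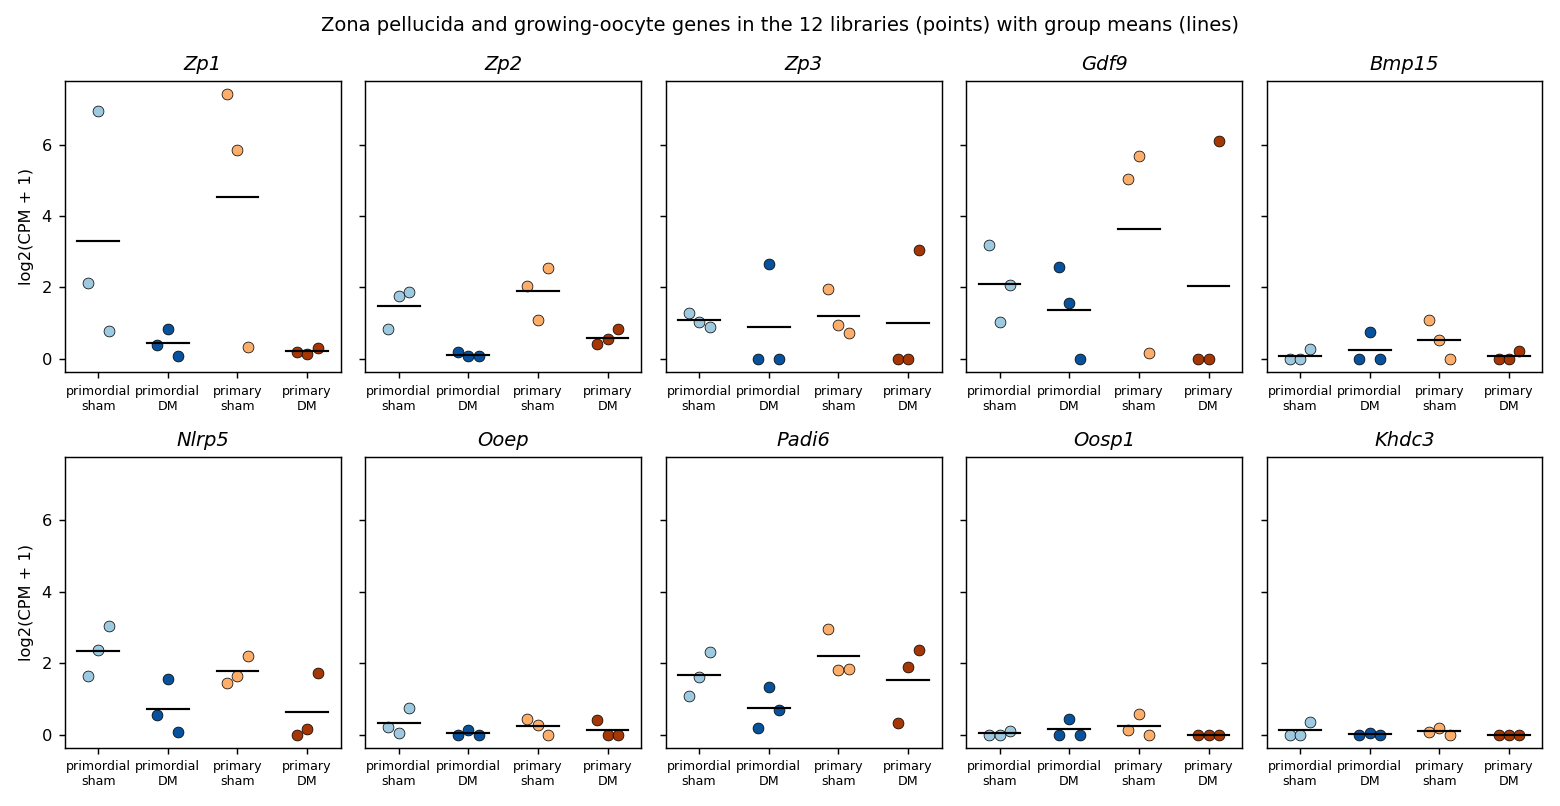
Level of each gene as log2(CPM + 1) on the vertical axis, by group on the horizontal axis, with 1 point per library and a line at the mean of the 3 libraries. All 6 DM points of Zp2 lie below all 6 sham points, whereas Zp3 and Gdf9 each have single DM libraries at the top of their range (7.27 and 68.1 CPM) and others at 0. On the TMM scale used in the fits, the Zp2 values of the treatments overlapped over both stages.

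The first comparison asked how oocytes of primary follicles differ from those of primordial follicles. With both treatments in the fit, 6 of the 10 genes passed the filter on low counts, and none was called by the quasi-likelihood test of edgeR at a Benjamini-Hochberg adjusted p of 0.05. Neither was any of the 7124 genes tested (0%), of which 720 had an unadjusted p under 0.05, none of them a member of the list. All 6 log2 fold changes were above 0, where 45.5% of all genes tested were, and their median was 2.19 against -0.36 for all genes. That the 6 genes passed the filter depended on their levels, so the count describes them and does not stand for the 10.

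For Gdf9 the log2 fold change, primary against primordial, was 3.99 with a standard error of 2.43 (edgeR's quasi-likelihood test, adjusted p = 0.606, 6 against 6 libraries). For Zp2 it was 3.51 with a standard error of 2.24 (edgeR, adjusted p = 0.638), and for Padi6 2.64 with a standard error of 2.21 (edgeR, adjusted p = 0.763). Zp3, Nlrp5 and Zp1 had 1.74, 1.35 and 0.47, each with a standard error of 2.04 to 2.09. Standard errors of 2.04 to 2.43 thus stood beside values of 0.47 to 3.99, and the levels of each gene overlapped between the stages. Scaling bears directly on these values: the TMM factors of the 12 libraries ran from 0.246 to 2.95, 4 of the 6 primary libraries were at 0.598 or below, and all 6 primordial libraries were at 1.02 or above. With library size alone, Zp1 and Nlrp5 turned to -0.20 and -0.46, and the median of the 6 genes was 0.79 against -1.35 for all genes. Without primary DM replicate 3, the library with 2389 counts of Gdf9, the value of Gdf9 was 0.73 and that of Zp3 was -0.60.

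DESeq2, the tool named in the study's methods, called 565 genes in this comparison, 12.8% of the 4426 to which it gave an adjusted p. Zp2 and Padi6 were among them, with log2 fold changes of 5.62 (DESeq2, adjusted p = 0.00345) and 4.44 (DESeq2, adjusted p = 0.0230). Within sham oocytes, edgeR called 0 of 6726 genes (0%), with 433 at an unadjusted p under 0.05. DESeq2 called 274 of the 5437 genes given an adjusted p there, none of them among the 10. Within DM oocytes, edgeR called 0 of 4331 genes (0%), with 746 at an unadjusted p under 0.05. DESeq2 called 913 genes there, 19.1% of those given an adjusted p, and Zp2 was one of them with a log2 fold change of 5.84 (DESeq2, adjusted p = 0.0320). In CPM, Zp2 was higher in all 3 primary DM libraries (0.327 to 0.770) than in all 3 primordial DM libraries (0.0475 to 0.131), which held for 1.45% of the genes tested. On the TMM scale Zp2 was apart too, as were 4.16% of the genes, although the primordial DM values rest on 1 to 5 counts. Zp2 passed the filter there through its primary libraries alone, so its direction is not independent of the filter.

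The second comparison asked what DM did at each stage. In primordial oocytes, the quasi-likelihood test of edgeR, adjusted by Benjamini-Hochberg, called 1 of 6699 genes (0.0149%), with 491 at an unadjusted p under 0.05, and none of the 6 genes of the list that passed the filter was called or had an unadjusted p under 0.05. The log2 fold changes of 5 of the 6 were below 0, where 48% of all genes tested were. Zp2 had -4.27 with a standard error of 2.43 (edgeR, adjusted p = 0.658, 3 against 3 libraries) and Nlrp5 had -2.10 with a standard error of 2.48 (edgeR, adjusted p = 0.860). Zp1 had -6.66 with a standard error of 3.75 (edgeR, adjusted p = 0.658), and this was -1.43 without primordial sham replicate 2, which holds 4532 of its counts. Padi6, Gdf9 and Zp3 had -1.19, -0.17 and 1.26, and Zp3 turned to -7.94 without primordial DM replicate 2, a value set by the prior count since the other DM libraries are at 0.

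In primary oocytes, edgeR called 0 of 4181 genes (0%), with 508 at an unadjusted p under 0.05. Of the 5 genes of the list that passed the filter, 2 had log2 fold changes below 0, where 47.4% of all genes tested were. Zp1 did not pass here and is not in this count, with 5772, 802 and 8 counts in sham and 4, 4 and 8 in DM libraries. Zp2 had -2.44 with a standard error of 2.59 (edgeR, adjusted p = 0.614), and this was 0.15 without primary sham replicate 3. Nlrp5 had -1.48, Padi6 0.33, Gdf9 1.72 and Zp3 1.83, each with a standard error of 2.47 to 2.88. The last pair rests on 1 library: without primary DM replicate 3, Gdf9 and Zp3 were at 0 counts in the DM group and their values turned to -11.53 and -8.31, which depend on the prior count and give no size. DESeq2 called 664 of the 6039 genes given an adjusted p in primordial and 577 of 4280 in primary oocytes, none of them among the 10. Genes without an adjusted p could not be called. The interaction of stage and DM was called by edgeR for 0 of 8500 genes (0%), with 1605 at an unadjusted p under 0.05, and for 0 of the 8 genes of the list tested. DESeq2, run without that filter, called 571 of the 5386 genes given an adjusted p, none of them among the 10.

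**Figure D3:**
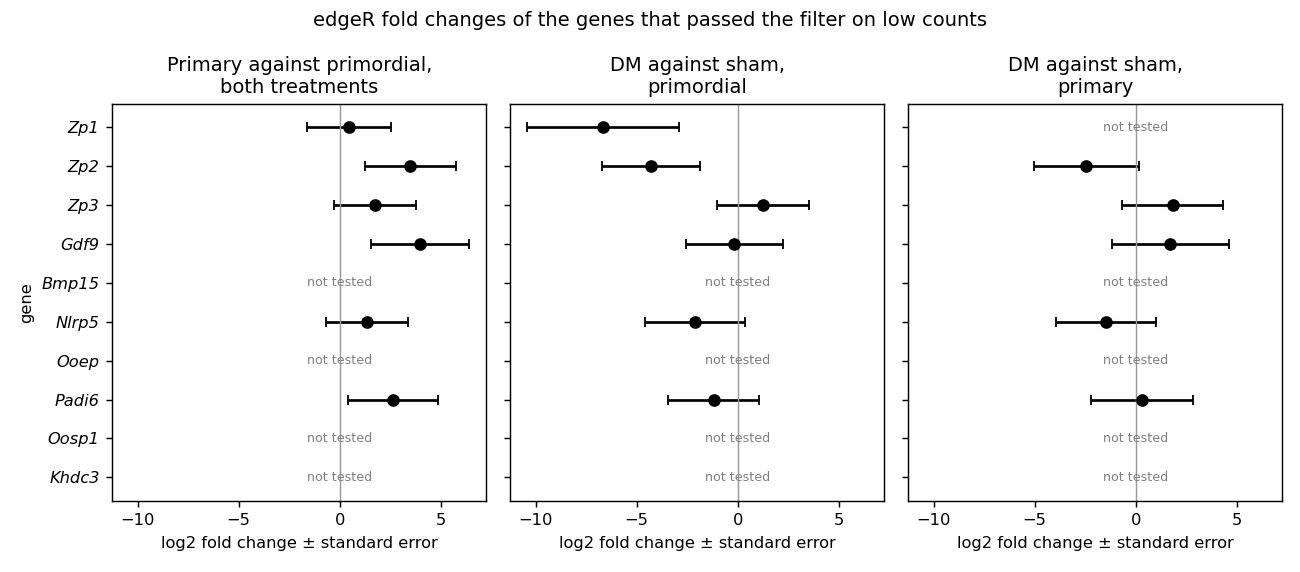
Log2 fold changes from edgeR (horizontal axis, points) with their standard errors (bars) for the genes that passed the filter on low counts, in primary against primordial oocytes with both treatments and in DM against sham oocytes at each stage. Each bar is more than 2 log2 units to each side, and none of the genes passed the adjusted test.

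Over both stages together, a comparison added after the values had been seen, edgeR called 0 of 7124 genes (0%), with 808 (11.3%) at an unadjusted p under 0.05. Zp1 was the 1 gene of the list among these, with a log2 fold change of -6.72 and a standard error of 2.67 (edgeR, adjusted p = 0.270, 6 against 6 libraries). Leaving out each library in turn kept its value between -7.29 and -4.92. Without primordial sham replicate 2, however, no gene of the list had an unadjusted p under 0.05 (edgeR). DESeq2 called 597 genes, 14.1% of those given an adjusted p, and Zp1 was among them at -5.31 (DESeq2, adjusted p = 0.00582). For Zp2 the value was -3.30 with a standard error of 2.22 (edgeR, adjusted p = 0.641), for Nlrp5 -1.78, for Padi6 -0.38, for Gdf9 0.93 and for Zp3 1.58. Thus 4 of the 6 were below 0, where 55.4% of all genes tested were.

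The separation of Zp2 by treatment can be set beside that of other genes. In CPM of the library total, DM libraries were all below sham libraries for Zp2 and Nlrp5 in primordial oocytes, as for 11% of the genes tested, and for Zp2 in primary oocytes, as for 11.8%. Over 6 against 6 libraries it held for Zp2 and for 0.716% of the genes tested. On the TMM scale Nlrp5 overlapped in primordial oocytes, and Zp2 was still apart, with 0.0705 to 0.140 against 0.441 to 2.75 CPM, as were 8.81% of the genes tested. The DM values of Zp2 there rest on 5, 2 and 1 counts, in part at the floor, and it passed the filter through its sham libraries alone. In primary oocytes its groups overlapped on that scale, with 0.305 to 1.25 CPM in DM and 0.431 to 12.8 CPM in sham libraries, and so did they over both stages.

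**Figure D4:**
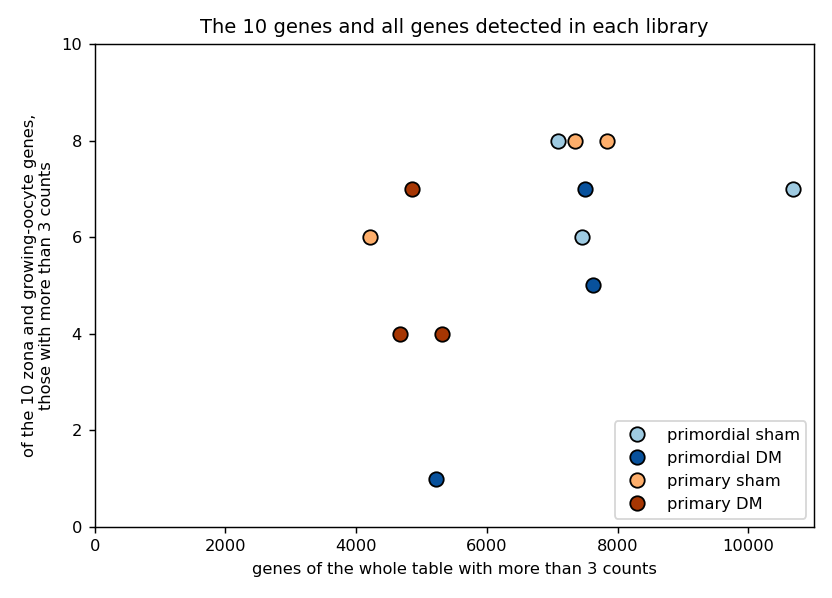
Number of the 10 genes with more than 3 counts (vertical axis) against the number of all genes with more than 3 counts (horizontal axis), with 1 point per library coloured by group. The library with the most genes detected, 10687, had 7 of the 10 above 3 counts, and the DM libraries reached from 1 to 7.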

How the data were processed

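The authors deposited a table of raw read counts per gene for 12 libraries. Adapters were trimmed with Trim Galore and reads were counted per gene with featureCounts on mm10 (GRCm38). The study's methods name TopHat2 as the aligner and the submitters' processing notes name STAR. Whether counting used strand is not given in the sources used here. Libraries were amplified and, by the kit named, captured, so counts are not independent molecules and the floor of 3 counts covers counting error only. Groups came from the sample labels, and 0 columns were left out. Of 55401 identifiers, 55141 were matched to a symbol.

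Genes were filtered with filterByExpr, scaled by TMM and tested with edgeR 4.0.16 (quasi-likelihood test, R 4.3.3) with Benjamini-Hochberg adjustment over all genes tested and a threshold of 0.05. The standard error is the log2 fold change divided by the square root of F. DESeq2 1.42.0, used by the study, was run as an alternative, beside other scalings, no filter, a replicate block and each library left out. CPM were computed from the library total, and log2 values use a pseudocount of 1. No pair of libraries of a group agreed within counting noise (chi-square per degree of freedom of at least 1588). P-values measure the spread between these samples.

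The members and lists were chosen with earlier results of these data known. All 10 members are named in every library. Fold changes are given where a gene passed the filter. Over both further lists, the 6 genes with the highest totals were to be named, and others named with them were chosen after their values were seen. Values of CPM per kilobase use the summed exon length of GENCODE. Python 3.11.15, pandas 2.3.3 and matplotlib 3.10.9 were used for the descriptions and plots.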

Additional observations from a re-analysis of the deposited data

How the results depend on the processing

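None of the 10 genes was called by edgeR under another scaling, without the filter, with the replicate block or with any library left out. DESeq2 called 2 of them for stage with both treatments, 1 for stage within DM and 1 for DM over both stages. The causes of these changes were not tested. Over all genes, DESeq2 called 565 for stage with both treatments, 274 within sham, 913 within DM, 597 for DM over both stages, 664 for DM in primordial and 577 in primary oocytes, and 571 for the interaction, where edgeR called 0 or 1. With library size alone edgeR called 1 gene for stage within sham and 1 for DM over both stages. The 1 gene called for DM in primordial oocytes was lost (0 called) with DESeq2's size factors, library size alone, no filter, the replicate block or all 12 libraries in 1 fit. With each library left out, 0 to 3 genes were called there and 0 to 4 for stage within DM, 4 of them without primary DM replicate 2, and 0 in each other comparison.

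Of 115 fold changes of the 10 genes under other settings, 98 kept their direction and side of the threshold, 14 turned and 3 passed the threshold, all 3 with DESeq2. With library size alone the values that turned were -0.20 for Zp1 and -0.46 for Nlrp5 (stage), -0.57 for Gdf9 (DM, both stages), and -0.41 for Gdf9 and -0.83 for Padi6 (DM, primary). With DESeq2 they were 0.073 for Padi6 (DM, both stages) and 0.15 for Gdf9 (DM, primordial), and with its size factors in edgeR 0.10 and 0.10. The median of all genes moved with scaling (TMM, DESeq2's size factors, library size): -0.36, 0.87 and -1.35 for stage, -0.47, 0.80 and -1.61 for DM over both stages, 0.13, 0.56 and -0.43 for DM in primordial and 0.31, 2.04 and -0.96 in primary oocytes.

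Same-numbered libraries did not deviate together (correlations of -0.0377 to 0.0357 over 18 pairs of libraries). Libraries of a group also differed widely, so this check cannot exclude a shared origin, and the labels do not name the animals. The fit with the replicate number as a block turned Nlrp5 to -0.032 (stage), Zp3 to -4.42 (DM, primordial), and Zp3 to -4.23, Gdf9 to -8.80 and Padi6 to -0.18 (DM, primary).

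With each library left out in turn, 196 of 210 values kept their direction and 14 turned. For stage, Zp1 ran from -0.35 (without primary sham replicate 1) to 2.30 and Zp3 from -0.60 (without primary DM replicate 3) to 3.85. For DM over both stages, Zp3 ran from -0.94 to 1.87 and Gdf9 from -2.37 to 1.35, the lowest both without primary DM replicate 3. For DM in primordial oocytes, Zp3 ran from -7.94 (without DM replicate 2) to 1.87 and Gdf9 from -1.19 to 0.41 (without DM replicate 3). For DM in primary oocytes, Zp2 ran from -3.03 to 0.15 and Nlrp5 from -4.72 to 0.94, the highest both without sham replicate 3. There Zp3 ran from -8.31 to 2.50 and Gdf9 from -11.53 to 2.53, the lowest without DM replicate 3, and Padi6 from -0.17 (without sham replicate 2) to 1.36. With 3 libraries a group and counts this low, changes of the size of the standard errors cannot be told from the spread between libraries.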

Other observations

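Other genes of the same biology gave the same kind of picture, of values with wide errors. A list of 31 further maternal and oocyte genes, of which 30 were matched by symbol, was read in the same fits. With all 12 libraries, 6 passed the filter for stage with both treatments and for DM over both stages, and 11 for the interaction. None was called by the quasi-likelihood test of edgeR, adjusted by Benjamini-Hochberg, in any of the comparisons. At an unadjusted p under 0.05 there was 1 for stage with both treatments and 1 for DM over both stages, Zar1 in each case, 1 for DM in primordial oocytes, Nobox, and 2 for the interaction, Mos and Npm2. Of all genes tested, 720 and 808 of 7124, 491 of 6699 and 1605 of 8500 were under 0.05 in these comparisons. Mos had 603 of its 684 counts in primary DM replicate 3, and Npm2 had 258 of its 310 in primary sham replicate 1. DESeq2 called 1 for DM in primordial oocytes, Taf4b, and 1 for stage within DM, Zar1. These genes other than Zar1 are named only for these calls, after their values were seen. For primary against primordial oocytes 5 of the 6 had log2 fold changes above 0 (median 1.08), and for DM against sham over both stages 0 of 6 did (median -1.74), beside medians of -0.36 and -0.47 for all genes. Lhx8, a homeobox factor of early oocytes, had the highest total of this list and was uneven in every group. It had 509, 1 and 40 counts in primordial sham, 0, 0 and 210 in primordial DM, 886, 804 and 0 in primary sham and 0, 0 and 126 in primary DM oocytes.

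A selection of 5 receptors and effectors, each of GDF9 or BMP15 or of both, had these total counts over the 12 libraries: 455297 for Smad3, 140673 for Bmpr2, 48192 for Smad2, 39389 for Tgfbr1 and 2766 for Bmpr1b, against 4848 for Gdf9 and 77 for Bmp15. Counts of different genes also depend on their lengths and may depend on probe coverage, which was not tested. The medians per kilobase of exon were 192 CPM for Smad3, 17.3 for Bmpr2, 11.0 for Tgfbr1, 6.10 for Smad2 and 0.0774 for Bmpr1b, beside 1.26 for Gdf9. All 5 passed the filter with 12 libraries, and none was called by edgeR or had an unadjusted p under 0.05 for stage with both treatments or for DM over both stages, while DESeq2 called 2 for stage, Smad3 and Bmpr1b, and 0 for DM. Bmpr1b also had an unadjusted p of 0.0093 for stage within DM (edgeR, log2 fold change 10.72, adjusted p = 0.286) and of 0.0395 for the interaction (edgeR, adjusted p = 0.244), and DESeq2 called it in both. These transcripts also varied between libraries of a group: Bmpr2, the shared type II receptor, had 11120, 30663 and 13 counts in primordial sham oocytes.

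Zar1, a maternal-effect gene next after the 6 highest totals over both lists, which the rule for named genes takes, and singled out after its values were seen, had 1061, 285 and 726 counts in primary sham oocytes, 219, 1 and 2 in primordial sham, 0, 0 and 0 in primordial DM and 0, 1 and 38 in primary DM oocytes. Its log2 fold change was 6.68 with a standard error of 2.67 for primary against primordial (edgeR, adjusted p = 0.343) and -6.32 with a standard error of 2.62 for DM against sham over both stages (edgeR, adjusted p = 0.302).

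Of 4890 genes with at least 10 CPM in at least 3 libraries, those whose log2(CPM + 1) was most like the mean of the 10 genes over the 12 libraries were Gga3 and Prkag2 with Spearman's rho of 0.92 and Hey2, Hist1h3a and Tmem201 with 0.90. The points share library depth and the number of genes detected, and only Hist1h3a and Tmem201 were also among the first 5 by Pearson's r.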
